A study of Mus musculus with 12 samples.

Results

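The genes described here encode the nuclear-encoded protein subunits of the mitochondrial respiratory chain and of ATP synthase. They were chosen by symbol: names starting Ndufa, Ndufb, Ndufc, Ndufs or Ndufv (complex I), the 4 Sdh genes (complex II), Uqcr (complex III), names starting with the numbered stems of the cytochrome c oxidase subunits (complex IV) and the Atp5 genes (complex V), with the assembly factors Ndufaf and Sdhaf left out. This rule found 82 genes among the 18193 that had a probe set of their own, namely 36 of complex I, 4 of complex II, 8 of complex III, 17 of complex IV and 17 of complex V. Each gene was read from 1 probe set, the set of short array probes with the highest mean over the 12 arrays. Of the 82 genes, 76 exceeded the filter level of log2 6.33, an intensity of 80.4, on at least 2 arrays and were tested among 12786 genes. The 6 that did not were Ndufa4l2 and Ndufb4 of complex I and Cox4i2, Cox7a1, Cox7b2 and Cox8b of complex IV.

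Complexes I and II pass electrons from NADH and succinate to ubiquinone, complex III passes them on to cytochrome c, and complex IV hands them to oxygen. Complexes I, III and IV pump protons across the inner mitochondrial membrane, and complex V, the ATP synthase, uses the returning protons to make ATP. Haematopoietic stem cells are known for low mitochondrial activity and reliance on glycolysis, while proliferating lymphoid cells use both routes.

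The series set ZMYM2-FGFR1 disease cells against normal cells with the same surface markers, on 12 arrays with 1 sample each. T lymphoma (4 samples) came from ZMYM2-FGFR1 mice of the third serial transplantation. Lymphomas 1, 2 and 3 were unsorted tumours with more than 90% GFP+Thy1+DP+ cells, and lymphoma 4 was sorted for these cells. They were compared with 3 samples of sorted normal double-positive (DP) thymocytes, which carry Thy1, CD4 and CD8, each pooled from 3 Balb/c mice. Leukaemic stem cells (LSC, 2 samples) were taken by sorting from marrow or spleen of 2 to 3 ZMYM2-FGFR1 mice as GFP+ Lin-Sca-1+c-kit+. They were compared with haematopoietic stem cells (HSC, 2 samples), sorted as Lin-Sca-1+c-kit+ and each pooled over the marrow of 5 normal female Balb/c mice. The ZNF112 cell line gave 1 array, and the labels say no more of its origin. The strain of the ZMYM2-FGFR1 mice and the age of any mouse are not given in the sources used here. The labels call the samples biological replicates without naming the animals of each lymphoma, so the p-values measure a spread between samples. That spread was 1 value per gene shared by all groups, while the groups differed in theirs. The root mean square SD over all genes tested was 1.02 in LSC, 0.55 in HSC, 0.62 in T lymphoma and 0.15 in DP thymocytes. Over the members it was 0.81, 0.52, 0.34 and 0.10. The p-values of LSC against HSC and of T lymphoma against DP thymocytes thus do not rest on the spread of those samples alone.

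The arrays of the T cell side (T lymphoma, DP thymocytes, cell line) had median intensities of 99.5 to 109. Those of the stem cell side (LSC, HSC) had 44.3 to 46.1, so groups were compared only within a side. A later test of the difference between the contrasts sets these within-side differences against each other. All 8 DP thymocyte markers were above the filter level on each lymphoma and DP array, with summed intensities of 38614 to 52930 in lymphomas and 92092 to 102482 in DP thymocytes. Of 6 stem cell markers measured, LSC 1 and LSC 2 had 4 and 3 above that level, against all 6 in both HSC samples. Hlf, a stem cell transcription factor, was at log2 5.37 and 4.77 in LSC, against 10.66 and 11.10 in HSC. This marker was thus absent from the LSC at the filter level. Mecom (5.92 and 4.08 against 9.80 and 10.38) and Meis1 (8.19 and 4.93 against 10.36 and 10.99) were also lower in LSC. Procr was at 9.30 and 7.73 against 9.58 and 9.39. Kit (12.31 and 10.99 against 11.00 and 11.43) overlapped, and Slamf1 was higher in LSC (8.70 and 9.95 against 7.61 and 8.45). Macrophage markers summed to 25252 to 54425 in the unsorted lymphomas and 3452 in the sorted one, against 1154 to 1319 in DP thymocytes. The 3'/5' ratio of the actin control probe sets, which grows as RNA is shortened, was 13.6 and 9.82 in LSC against 5.79 and 3.91 in HSC, and 2.44 to 3.69 in lymphomas against 2.18 to 2.23 in DP thymocytes. In bulk samples, fewer cells of a type and less RNA per cell cannot be told apart.

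In T lymphoma 0 of the 76 subunit genes tested passed the threshold against DP thymocytes (limma, Benjamini-Hochberg adjusted p under 0.05). Of all genes tested 6.55% did, 3.37% higher and 3.18% lower. At an unadjusted p under 0.05 in limma there were 3 members (Ndufs7, Cox6b2 and Cox7a2l), against 2886 of all 12786 genes tested. The smallest adjusted p of the members was 0.169. The median difference, T lymphoma minus DP thymocytes, was 0.13 on the log2 scale over the members, with 51 of 76 above 0, against -0.02 over all genes tested. By complex the medians were 0.18 for complex I, -0.01 for II, 0.10 for III, 0.16 for IV and 0.12 for V. The 95% interval of the difference lay within 1 log2 unit of 0 for 49 of 76 members, against 46.1% of all genes tested. All 4 lymphomas lay above all 3 DP samples in 13 members and below them in 6, that is 19 of 76, where the groups did not overlap in 34.4% of all genes tested, 15.3% above and 19.1% below. In a limma fit of the T lymphoma and DP arrays alone 3 members were called, where 14.3% of all genes were.

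In LSC the subunit genes lay mostly below their level in HSC, and 4 of 76 fell past the threshold: Cox6b2, Atp5g2, Sdhc and Ndufs3. Cox6b2 lay under the filter level in both LSC samples and was tested through its normal samples, so the size of its fall is uncertain. Over all genes tested 10.3% were called, 4.05% higher and 6.21% lower, so 4 of 76 is no more than the share of all genes. The median difference, LSC minus HSC, was -0.30 over the members, with 60 of 76 below 0, against -0.03 over all genes tested. By complex the medians were -0.34 for complex I, -0.82 for II, -0.23 for III, -0.10 for IV and -0.35 for V, and all 8 members of complex III were below 0. Both LSC samples lay below both HSC samples in 10 members and above them in 3, where the groups did not overlap in 43% of all genes tested, 20.5% above and 22.5% below. The members' median difference was 0.08 without LSC 1 and -0.72 without LSC 2, and the count of calls was 2 and 19, so it depended on which LSC sample was kept. Of all genes tested 18.1% and 21.2% were called in these fits. The members called without LSC 1 were Cox6b2 and Sdha. Without HSC 1 the members' median was -0.61, and without HSC 2 it was -0.000643. In a limma fit of the LSC and HSC arrays alone 0 members and 0 of all genes were called, and with array weights 0 members were called.

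**Figure D1:**
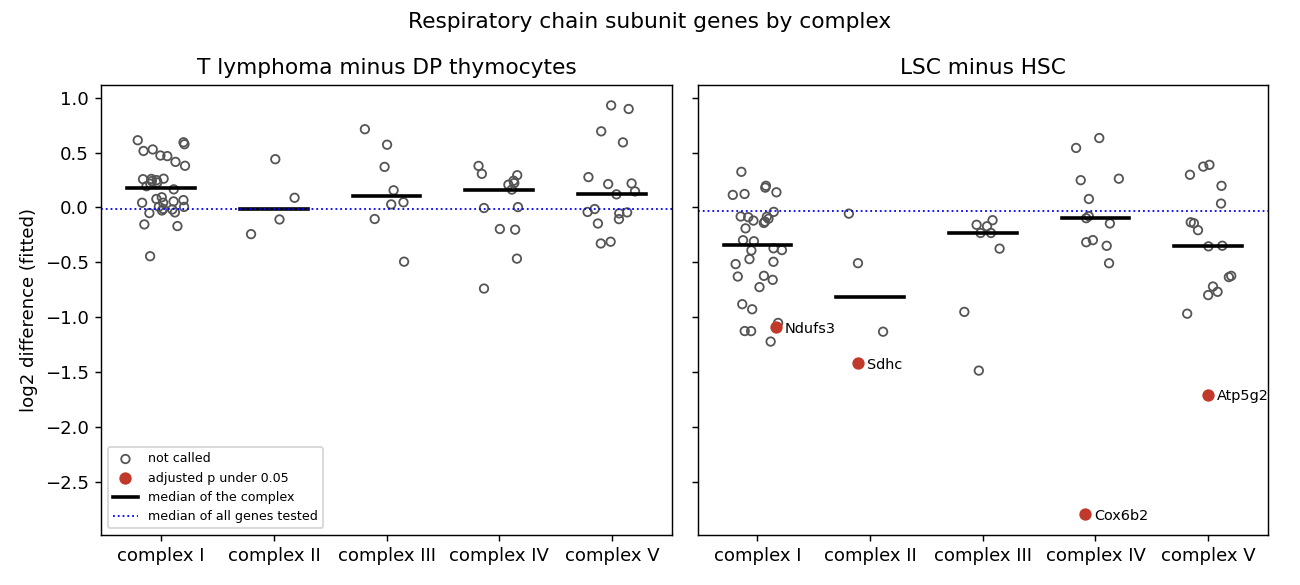
Fitted log2 difference of each tested subunit gene (y axis) by complex (x axis), T lymphoma minus DP thymocytes on the left and LSC minus HSC on the right. Points are genes, filled where the adjusted p was under 0.05, bars are the complex medians and the dotted line is the median of all genes tested. No gene is filled on the left and 4 are on the right, all below 0.

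Complex I takes electrons from NADH. Its 34 tested members showed 0 calls in T lymphoma and 1 in LSC, against 6.55% and 10.3% of all genes tested. The call was Ndufs3, a core subunit of the arm that reaches into the matrix. Ndufs3 was at log2 9.65 and 10.11 in LSC, against 10.73 and 11.22 in HSC. Both LSC samples were below both HSC samples, a difference of -1.09 ± 0.24 (SE; limma, Benjamini-Hochberg adjusted p = 0.0226), or 2.13-fold lower in LSC. Without LSC 1 the difference was -0.87 with an adjusted p of 0.052, and without HSC 2 it was -0.85 with an adjusted p of 0.106, by the same limma fit. In T lymphoma Ndufs3 was at 12.03, 11.63, 11.86 and 11.88, against 11.86, 11.87 and 11.86 in DP thymocytes, groups that overlapped with a difference of -0.01 ± 0.18 (SE).

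Within complex I the largest positive difference in T lymphoma was that of the accessory subunit Ndufa7, at 11.42, 10.79, 11.82 and 10.80 against 10.58, 10.67 and 10.53 in DP thymocytes. All 4 lymphomas were above the DP samples, and the difference of 0.61 ± 0.43 (SE) did not pass the threshold (limma, Benjamini-Hochberg adjusted p = 0.437). The lowest was Ndufs4, a subunit needed for a stable complex, with -0.45 ± 0.23 (SE) and an adjusted p of 0.292 in limma. In LSC the highest was Ndufb11, an accessory subunit of the membrane arm, at 0.32 ± 0.24 (SE). The lowest was Ndufa4, named for complex I and since assigned to complex IV, at 9.35 and 9.70 in LSC against 10.17 and 11.32 in HSC. Its LSC samples were below the HSC samples by -1.22 ± 0.46 (SE), with an adjusted p of 0.13 in limma. Ndufa4l2, its hypoxia-induced relative, was below the filter level on every array, at 5.94 to 6.14 in lymphomas and 5.92 to 6.06 in DP thymocytes.

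Complex II, succinate dehydrogenase, links the citrate cycle to the chain. Of its 4 genes 1, Sdhc, was called lower in LSC, where 6.21% of all genes tested were. A single call among 4 genes does not speak for the complex. Sdhc, a membrane anchor that binds haem, was at 7.80 and 8.51 in LSC, against 9.43 and 9.72 in HSC, a difference of -1.42 ± 0.34 (SE; limma, Benjamini-Hochberg adjusted p = 0.0294). The groups did not overlap, and Sdhc was 2.68-fold lower in LSC. A different probe set of Sdhc gave -0.40 and was not called, and the limma adjusted p was 0.0756 without LSC 1, 0.0602 without HSC 1 and 0.127 without HSC 2. Sdhd, the other anchor, was at 8.96 and 10.13 in LSC against 9.91 and 11.45 in HSC, overlapping groups with -1.13 ± 0.49 (SE). Sdha, the flavoprotein, was at 12.02 and 10.76 in LSC and 11.61 and 12.18 in HSC, and LSC 1 was between the HSC samples while LSC 2 was below both. Sdhb, the iron-sulphur subunit, was at 10.34 and 11.87 in LSC and 11.01 and 11.32 in HSC, with LSC 1 below and LSC 2 above both.

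In T lymphoma the complex II genes differed little. Sdhd was highest, with 11.82, 11.56, 11.94 and 11.67 in lymphomas against 11.29, 11.41 and 11.23 in DP thymocytes, all lymphomas above all DP samples, and a difference of 0.44 ± 0.37 (SE) that limma did not call (adjusted p = 0.537). Sdhc was lowest, with 10.79, 9.90, 10.06 and 10.48 against 10.50, 10.64 and 10.50, overlapping groups with -0.24 ± 0.26 (SE). Sdha had -0.11 ± 0.28 (SE) and Sdhb 0.09 ± 0.35 (SE), both with overlapping groups.

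Complex III moves electrons from ubiquinol to cytochrome c, and 0 of its 8 members passed the threshold in either contrast. Of all genes tested 6.55% did in T lymphoma and 10.3% in LSC. The small subunit Uqcr11 had the largest difference in T lymphoma, with 11.99, 11.93, 12.75 and 11.21 against 11.18, 11.32 and 11.28 in DP thymocytes. Its sorted lymphoma lay among the DP samples and lymphoma 3 lay highest, with 0.71 ± 0.42 (SE) over the group (limma, Benjamini-Hochberg adjusted p = 0.358). Uqcrc1, a core subunit, ran the other way, with 11.93, 11.43, 10.85 and 12.20 in lymphomas against 12.03, 12.28 and 11.99 in DP thymocytes, and lymphoma 3 was its lowest sample. In LSC Uqcrc1 was at 9.51 and 10.19, against 11.15 and 11.53 in HSC. These groups did not overlap, and the difference of -1.49 ± 0.42 (SE) missed the threshold (limma, Benjamini-Hochberg adjusted p = 0.0564). The smallest difference of complex III in LSC was that of Uqcr10, a small subunit, at -0.12 ± 0.40 (SE).

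Complex IV, cytochrome c oxidase, has several subunits with alternative isoforms for different tissues. Its 13 tested members showed 0 calls in T lymphoma and 1 in LSC, against 6.55% and 10.3% of all genes tested. The call was Cox6b2, the isoform known from testis. Cox6b2 was at 4.40 and 4.49 in LSC, against 6.55 and 7.94 in HSC, a difference of -2.80 ± 0.38 (SE; limma, Benjamini-Hochberg adjusted p = 0.00258). It was at 5.84, 5.87, 6.00 and 5.68 in lymphomas, against 6.43, 6.60 and 6.73 in DP thymocytes, with -0.74 ± 0.29 (SE; limma, Benjamini-Hochberg adjusted p = 0.169). The disease samples were below their normal counterparts in both settings, and all LSC and lymphoma values lay under the filter level. The gene passed that filter through its normal samples, so its size of change is uncertain. The LSC call was lost in the fit of the LSC and HSC arrays alone (limma adjusted p = 0.248) and with array weights (0.0702).

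The ubiquitous isoform Cox6b1 did not follow Cox6b2, with 12.91 and 13.48 in LSC and 12.53 and 13.36 in HSC, overlapping groups at 0.25 ± 0.34 (SE). Cox4i1, the common form of subunit 4, was at 13.79, 13.49, 13.77 and 13.88 in lymphomas and 13.89, 13.86 and 14.04 in DP thymocytes, and at 12.13 and 13.42 in LSC and 12.91 and 13.34 in HSC, overlapping on both sides. Its hypoxia-linked relative Cox4i2 was below the filter level on all arrays. Cox6a1, the ubiquitous form of subunit 6a, was at 13.58, 13.48, 13.59 and 13.56 in lymphomas against 13.70, 13.83 and 13.73 in DP thymocytes. All lymphomas were below the DP samples by a small step of -0.20 ± 0.28 (SE). In LSC Cox6a1 had 0.08 ± 0.37 (SE) with overlapping groups.

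Cox7a2l, a factor that joins complexes III and IV into supercomplexes, was the member with the highest difference of complex IV in both contrasts. It was at 13.75, 13.66, 14.13 and 13.95 in lymphomas against 13.44, 13.57 and 13.47 in DP thymocytes, and at 13.45 and 13.63 in LSC against 12.84 and 12.97 in HSC. The disease samples were above the normal ones on both sides, by 0.38 ± 0.16 (SE) and 0.63 ± 0.21 (SE), and neither difference passed the threshold (limma, Benjamini-Hochberg adjusted p = 0.202 and 0.0909). All 3 probe sets of Cox7a2l had positive differences, 0.38 to 0.50 in T lymphoma and 0.41 to 0.63 in LSC. Cox7a2, the common form of subunit 7a, had -0.01 ± 0.29 (SE) in T lymphoma and -0.10 ± 0.37 (SE) in LSC. Cox8a, the common form of subunit 8, was at 10.65, 10.67, 10.65 and 10.44 in lymphomas against 10.29, 10.40 and 10.25 in DP thymocytes, and at 8.74 and 9.10 in LSC against 9.27 and 9.59 in HSC. Its groups did not overlap on either side, above DP thymocytes by 0.29 ± 0.16 (SE) and below HSC by -0.51 ± 0.21 (SE), without a call (limma, Benjamini-Hochberg adjusted p = 0.313 and 0.163).

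Cox6a2, Cox7a1 and Cox8b are the heart and skeletal muscle isoforms. Cox6a2 was at 8.57, 8.64, 9.32 and 8.55 in lymphomas, against 8.59, 8.55 and 8.54 in DP thymocytes, so lymphoma 3 alone stood above the others. Cox7a1 was below the filter level on all 12 arrays, with its highest lymphoma value, 5.68, also in lymphoma 3. Cox8b was below it as well, at 5.77 to 6.09 in lymphomas and 5.76 to 5.93 in DP thymocytes. Cox8c, the testis form of subunit 8, had 0.00 ± 0.18 (SE) in T lymphoma and -0.15 ± 0.23 (SE) in LSC, with overlapping groups. Cox7b2 was dim throughout, and Cox7b had no probe set naming it alone.

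Complex V makes ATP, and its c-ring, the rotor through which protons pass, is built from one mature protein encoded by Atp5g1, Atp5g2 and Atp5g3. These genes differ in the targeting sequence of their precursors and are known to be regulated separately, so their promoters are shown with their values. The promoters of these genes and of Ndufs3 follow, 250 bases before to 50 bases after the RefSeq gene start (GRCm38.p6), each 5′ to 3′ on the gene's strand, here the minus strand in all 4: Atp5g1 chr11:96075582-96075881, Atp5g2 chr15:102670998-102671297, Atp5g3 chr2:73911277-73911576 and Ndufs3 chr2:90904672-90904971. Capitals mark a match to a motif searched on both strands: NRF1 in Atp5g2 at position -42 and in Atp5g3 at position 13, ESRRA (TCAAGGTCA, here its reverse complement) in Atp5g3 at position -52, and GABPA (CCGGAAGT, reverse complement) in Ndufs3 at position 1 of the transcript, counted from the gene start.
Atp5g1: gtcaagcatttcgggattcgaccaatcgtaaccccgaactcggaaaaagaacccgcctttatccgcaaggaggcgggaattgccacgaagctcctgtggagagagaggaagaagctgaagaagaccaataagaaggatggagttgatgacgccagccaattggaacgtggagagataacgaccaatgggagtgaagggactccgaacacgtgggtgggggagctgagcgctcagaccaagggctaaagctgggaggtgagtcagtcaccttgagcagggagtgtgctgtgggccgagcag
Atp5g2: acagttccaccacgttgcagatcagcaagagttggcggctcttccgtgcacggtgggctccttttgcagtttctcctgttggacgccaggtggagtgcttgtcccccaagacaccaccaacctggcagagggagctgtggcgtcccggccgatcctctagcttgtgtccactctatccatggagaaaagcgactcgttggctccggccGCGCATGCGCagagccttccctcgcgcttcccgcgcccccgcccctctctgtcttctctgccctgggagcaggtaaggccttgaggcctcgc
Atp5g3: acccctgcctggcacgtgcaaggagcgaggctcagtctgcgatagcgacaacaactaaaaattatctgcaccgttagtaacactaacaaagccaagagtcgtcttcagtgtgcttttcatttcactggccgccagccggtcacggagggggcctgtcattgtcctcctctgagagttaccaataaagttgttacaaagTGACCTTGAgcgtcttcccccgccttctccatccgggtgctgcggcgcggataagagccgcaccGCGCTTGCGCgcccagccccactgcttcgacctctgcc
Ndufs3: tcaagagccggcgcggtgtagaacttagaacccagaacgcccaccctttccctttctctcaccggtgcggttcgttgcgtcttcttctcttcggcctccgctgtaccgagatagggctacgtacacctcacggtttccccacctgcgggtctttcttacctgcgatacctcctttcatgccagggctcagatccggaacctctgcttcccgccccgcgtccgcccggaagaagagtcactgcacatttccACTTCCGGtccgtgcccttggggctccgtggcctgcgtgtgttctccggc

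Atp5g2 fell in LSC, and its difference in T lymphoma was positive and not called. It was at 7.45 and 9.02 in LSC, against 9.70 and 10.19 in HSC, with -1.71 ± 0.46 (SE; limma, Benjamini-Hochberg adjusted p = 0.0473), or 3.27-fold lower in LSC. It was at 11.00, 10.69, 11.37 and 10.60 in lymphomas, against 10.15, 10.29 and 10.23 in DP thymocytes, with 0.69 ± 0.35 (SE; limma, Benjamini-Hochberg adjusted p = 0.282). The groups did not overlap on either side. The test of the difference between the contrasts gave 2.40 ± 0.58 (SE; limma, Benjamini-Hochberg adjusted p = 0.0354). A different probe set of Atp5g2 gave 0.16 in T lymphoma and -0.17 in LSC and was not called. The LSC call was lost without LSC 1 (-0.93, limma adjusted p = 0.104), without HSC 1 (-1.95, 0.0828) and without HSC 2 (-1.47, 0.193).

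Atp5g1 had a pattern like that of Atp5g2 in direction, without a call. It was at 10.37, 10.56, 10.96 and 9.73 in lymphomas against 9.61, 9.69 and 9.22 in DP thymocytes, and at 8.52 and 9.77 in LSC against 9.36 and 10.87 in HSC. The lymphomas were all above the DP samples, by 0.90 ± 0.44 (SE), while the stem cell groups overlapped at -0.97 ± 0.58 (SE; limma, Benjamini-Hochberg adjusted p = 0.265 and 0.333). Atp5g3 was flat by comparison, at 14.05, 13.74, 14.04 and 13.92 in lymphomas against 14.07, 14.07 and 14.12 in DP thymocytes, and at 13.11 and 12.98 in LSC against 12.94 and 13.45 in HSC. Its lymphomas were just below the DP samples (-0.15 ± 0.17, SE), and its stem cell groups overlapped (-0.14 ± 0.22, SE).

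The other members of complex V included the largest positive difference in T lymphoma, that of Atp5l, subunit g of the membrane part. Atp5l was at 11.19, 10.97, 11.60 and 10.62 in lymphomas against 10.09, 10.27 and 10.14 in DP thymocytes, all lymphomas above all DP samples, with 0.93 ± 0.41 (SE; limma, Benjamini-Hochberg adjusted p = 0.221). Fitted on the T lymphoma and DP arrays alone, Atp5l and Ndufa10 rose and Cox6b2 fell (adjusted p of 0.0389, 0.0492 and 0.0134 in limma), and in that fit 14.3% of all genes were called. With array weights 12 members were called, where 36.6% of all genes were. Ndufa10, an accessory subunit of complex I, is named after its values were seen. The catalytic beta subunit Atp5b lay the other way, at 13.62, 13.31, 13.73 and 13.52 in lymphomas against 13.88, 13.84 and 13.91 in DP thymocytes, all below, with -0.33 ± 0.20 (SE). In LSC Atp5b was at 12.01 and 11.74 against 12.22 and 12.97 in HSC, again below, with -0.72 ± 0.27 (SE; limma, Benjamini-Hochberg adjusted p = 0.125). Atp5md, a small membrane subunit, had the highest difference of complex V in LSC, 0.39 ± 0.29 (SE), with overlapping groups.

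**Figure D2:**
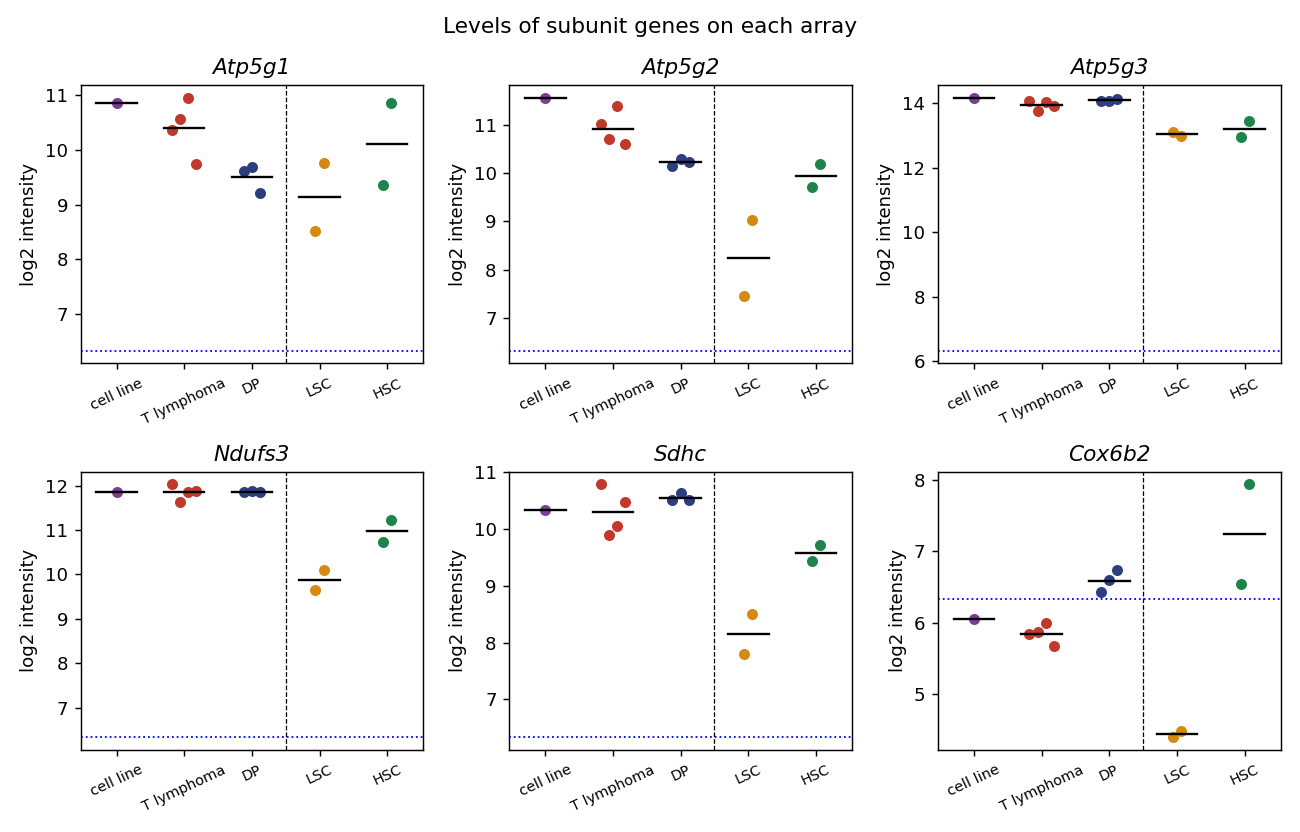
Log2 intensity (y axis) of 6 subunit genes on each array, by group (x axis), with the T cell side left of the dashed line and the stem cell side right of it. Points are arrays, bars group means, and the dotted line is the filter level of log2 6.33. Atp5g1 and Atp5g2 sit higher in all lymphomas than in DP thymocytes, Atp5g3 does not, and the LSC points of Ndufs3, Sdhc, Atp5g2 and Cox6b2 sit under both HSC points.

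The difference of the contrasts, T lymphoma minus DP thymocytes less LSC minus HSC, was called for 2 of 76 members, Atp5g2 and Cox6b2, both positive, against 8.92% of all genes tested, 5.3% positive and 3.62% negative. Cox6b2 gave 2.06 ± 0.47 (SE; limma, Benjamini-Hochberg adjusted p = 0.0306). Both disease groups lay under the filter level there, and at different dim levels on the T cell and stem cell sides. These dim values enter the difference, so its size is uncertain. With 32 added to the intensity it was 1.28 and not called (limma adjusted p = 0.076). The members' median was 0.44, with 60 of 76 above 0, against 0.02 over all genes tested. Leaving out 1 array at a time, Atp5g2 stayed called in 3 of 11 fits (limma adjusted p of 0.00224 to 0.106) and Cox6b2 in 5 of 11 (0.00217 to 0.0855), and both calls were lost without any 1 of lymphomas 1, 2 and 3 or of the DP samples. The median was 0.07 without LSC 1, 0.91 without LSC 2 (19 calls, where 19.1% of all genes were called), 0.77 without HSC 1 and 0.11 without HSC 2, and without lymphoma 3 and LSC 1 together, a choice made after seeing the data, it was -0.05 with 1 call, Atp5g2, where 18% of all genes were called.

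Within the T lymphoma group the members moved together from sample to sample. Lymphoma 3 was the highest of the 4 lymphomas in 60 of 76 members, where it was the highest in 29.5% of all genes tested. The sorted lymphoma 4 was the lowest in 41 members and lymphoma 2 in 33, where they were the lowest in 26.9% and 25.1% of all genes tested. Relative to the DP thymocyte mean, the members' median was 0.20, 0.01, 0.48 and -0.07 on the log2 scale in lymphomas 1 to 4, against -0.04, 0.06 and -0.02 in the DP samples. Genes of the mitochondrial ribosome had 0.18, -0.03, 0.51 and 0.06 in the lymphomas, and those of the cytosolic ribosome 0.21, 0.10, 0.43 and 0.25. Lymphoma 3 was thus the highest for the 3 lists, while its median over all genes tested was 0.01. Without lymphoma 3 the members' median difference from DP thymocytes was 0.02, and with the sorted lymphoma as the only tumour it was -0.07.

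Lymphoma 3 also carried signal of other tissues. Ckm, Acta1 and Tnnt3, genes of skeletal muscle, were at 10.24, 9.10 and 8.39 in lymphoma 3, against 7.47 to 7.61, 5.42 to 5.60 and 4.91 to 5.37 in the other lymphomas. The list of 6 muscle and adipose markers summed to 2532 in lymphoma 3, to 677, 1122 and 389 in lymphomas 1, 2 and 4, and to 383 to 406 in DP thymocytes. The adipose markers of this list did not single out lymphoma 3. Adipoq was at 8.47, 9.59, 8.50 and 5.05 in lymphomas 1 to 4, and Ucp1 at 5.57, 5.64, 5.74 and 5.87. Myh6, the cardiac myosin, stayed at 4.60 in lymphoma 3, under the filter level. The 5 B cell markers measured summed to 4499 in lymphoma 3 and 368 to 553 in the other lymphomas, and the actin 3'/5' ratio of lymphoma 3, 3.69, was the highest of the T cell side. Its Gapdh 3'/5' ratio, 3.34, was not, with 3.47, 3.09 and 4.56 in lymphomas 1, 2 and 4 and 3.19 to 3.66 in DP thymocytes. The part of these tissues and of RNA quality in the high subunit levels of lymphoma 3 was not tested.

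**Figure D3:**
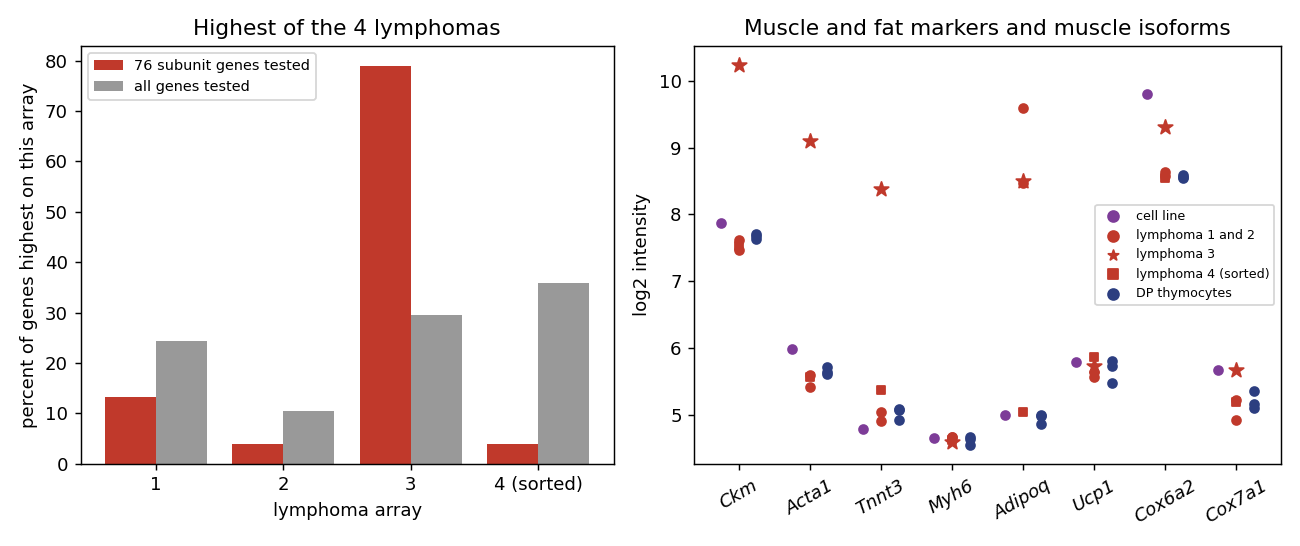
Left, percent of genes (y axis) whose highest lymphoma value is on each lymphoma array (x axis), for the 76 subunit genes and for all genes tested. Right, log2 intensity of 6 muscle and adipose markers and 2 muscle isoforms of complex IV on the T cell side arrays, with lymphoma 3 as a star. Lymphoma 3 is the highest in 60 of 76 subunit genes and is the highest lymphoma for Ckm, Acta1, Tnnt3 and Cox6a2.

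On the stem cell side LSC 1 was the lowest of the 4 arrays in 56 of 76 members, where it was the lowest in 29.9% of all genes tested. LSC 1 was below the HSC mean in 63 members, and by more than 1 log2 unit in 28, while LSC 2 was above it in 46. Over all genes tested the median relative to that mean was -0.04 in LSC 1 and -0.01 in LSC 2. The members' median relative to the HSC mean was -0.72 and 0.08 in LSC, against -0.31 and 0.31 in HSC, so LSC 2 lay between the HSC samples. The mitochondrial ribosome had -1.12 and -0.10 in LSC and the cytosolic ribosome -0.78 and 0.20. LSC 1 was thus lowest for the 3 lists, and it had the highest actin 3'/5' ratio of all arrays. The Gapdh 3'/5' ratio did not single it out, at 7.84 in LSC 1 and 8.13 in LSC 2, against 6.68 and 3.64 in HSC. Macrophage markers summed to 14115 and 3312 in LSC against 29785 and 4566 in HSC, granulocyte markers to 8703 and 975 against 26572 and 31673, erythroid markers to 1851 and 207 against 7588 and 14994, and DP thymocyte markers to 3561 and 14762 against 775 and 496. The part of RNA quality and of other cell types in the low levels of LSC 1 was not tested.

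**Figure D4:**
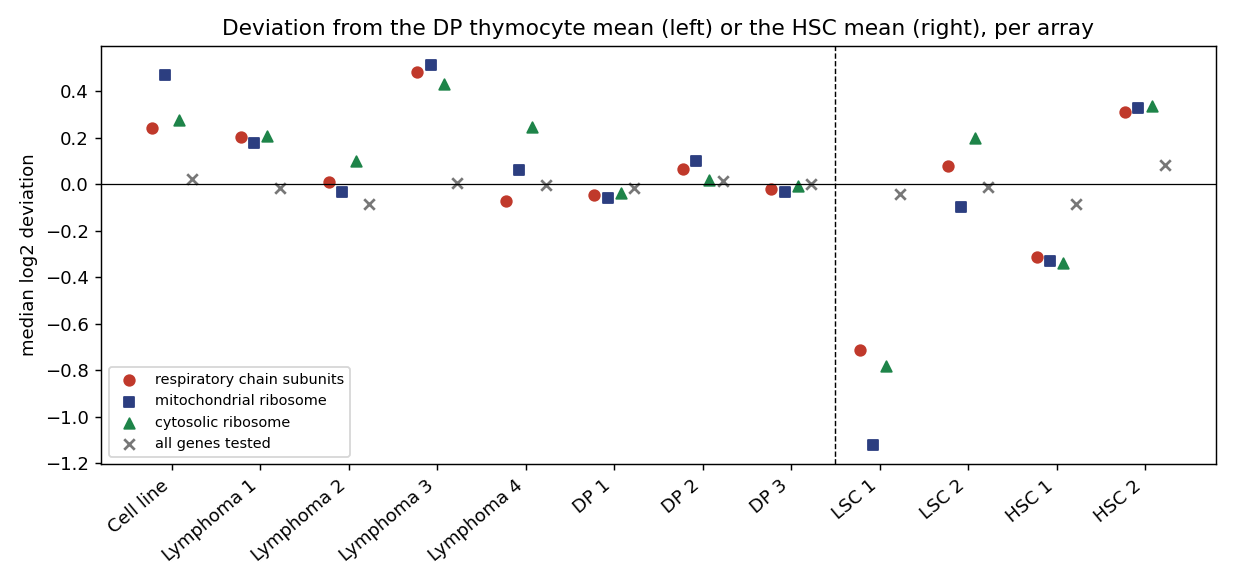
Median log2 deviation (y axis) of 3 gene lists and of all genes tested on each array (x axis), relative to the DP thymocyte mean left of the dashed line and to the HSC mean right of it. The subunit genes range from -0.07 to 0.48 over the lymphomas and from -0.72 to 0.08 over the LSC samples. Both ribosome lists are also highest in lymphoma 3 among the lymphomas, and lower in LSC 1 than in LSC 2. In lymphoma 4 the cytosolic ribosome is at 0.25, where the subunit genes are at -0.07. All genes tested stay near 0.

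The ZNF112 cell line had 1 array, assumed in the fit to vary like the other groups. It showed 0 of 76 members called against T lymphoma, where 1.15% of all genes tested were called, and 0.54% in the higher direction. The members' differences ranged from -0.61 to 1.03. The median difference was 0.16, with 57 of 76 above 0, against 0.03 over all genes tested. It was 0.07 without lymphoma 4, 0.08 without lymphoma 2, 0.24 without lymphoma 3 and 0.35 against the sorted lymphoma alone, a choice made after seeing the data. All 8 members of complex III and 16 of 17 of complex V were above 0, with medians of 0.20 and 0.21, while complex I had 0.05, complex II -0.08 and complex IV 0.17. Cox6a2 was at 9.80 in the cell line, above all 4 lymphomas, a difference of 1.03 ± 0.62 (SE). Atp5b was at 14.24, also above all lymphomas, a difference of 0.69 ± 0.30 (SE). The muscle and adipose markers summed to 438 in the cell line, near the 383 to 406 of DP thymocytes.

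The sorted lymphoma, again 1 array, showed 0 of 76 members called against the 3 unsorted lymphomas, where 0.657% of all genes tested were called. Higher calls were 0.0626% and lower ones 0.594% of all genes. The members' differences ranged from -1.01 to 0.80. The median difference, sorted minus unsorted, was -0.29, with 65 of 76 below 0, against 0.05 over all genes tested. Complex I had 32 of 34 members below 0 and complex V 15 of 17, with medians of -0.33 and -0.36, and complex III had -0.34, complex IV -0.22 and complex II -0.02. Without lymphoma 3 the median was -0.15. The 9 stroma and endothelium markers summed to 773 in the sorted lymphoma, against 17289 to 34789 in the unsorted ones, and stood at 805 to 919 in DP thymocytes. Macrophage markers were lower with them, and the part of these cells in the difference was not tested. Sorting and the tumour itself cannot be told apart with 1 sorted sample.

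Genes that feed, build or regulate the chain are given by list. These lists were chosen with earlier results of these data known. In T lymphoma 1 of 43 assembly factors rose (2.33%), where 3.37% of all genes tested were called higher. It was Ndufaf4 (complex I assembly), by 1.06 ± 0.24 (SE; adjusted p = 0.0322 in limma). A different probe set of Ndufaf4 gave 1.02 and was not called. The median over the assembly factors was 0.14. Among 14 regulators of mitochondrial biogenesis 1 rose and 2 fell, with a median of -0.35. Of all genes tested 3.37% were called higher and 3.18% lower. Myc, a growth-promoting transcription factor, rose by 2.26 ± 0.26 (SE, adjusted p = 0.0011), Nrf1, an activator of respiratory chain genes, fell by 1.34 on the log2 scale (SE 0.20, adjusted p = 0.00413), and Polg, the mitochondrial DNA polymerase, fell by 1.65 (SE 0.31, adjusted p = 0.0119), all by limma. None of 16 citrate cycle genes, 14 glycolysis genes, 5 electron carriers, 76 genes of the mitochondrial ribosome and 43 of the cytosolic ribosome was called in T lymphoma, with medians of -0.02, 0.30, 0.15, 0.17 and 0.23.

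In LSC 4 of 16 citrate cycle genes fell, where 6.21% of all genes tested were called lower, with a median of -0.76: Idh2 (-2.77), Ogdh (-2.02), Fh1 (-1.11) and Dlst (-0.86). Idh2 is the mitochondrial NADP-dependent isocitrate dehydrogenase, Ogdh and Dlst belong to the oxoglutarate dehydrogenase complex, and Fh1 is fumarase. Other probe sets of Idh2 (0.21), Ogdh (-0.46) and Dlst (0.46, -0.34 and 0.03) were not called, and some thus had the opposite sign. In the fit of the LSC and HSC arrays alone 0 of all genes were called, so the list calls given here for LSC were lost there. Of 14 biogenesis regulators 2 fell, the coactivators Ppargc1b (-1.98) and Pprc1 (-1.56), and of 5 electron carriers 1, Etfb (-1.61). Of 43 assembly factors 1 fell, the copper chaperone Sco2 of complex IV (-1.25), and of 76 mitochondrial ribosome genes 3, Mrps26 (-1.41), Mrpl17 (-1.26) and Mrps34 (-1.19). These last counts are 2.33% and 3.95% of their lists, below the share of all genes called lower. In glycolysis Pfkm, a phosphofructokinase, fell (-1.91) and Slc2a1, the glucose transporter GLUT1, rose (3.04 ± 0.45, SE; limma, Benjamini-Hochberg adjusted p = 0.00381), with all 3 of its probe sets positive. Of the cytosolic ribosome Rps4l fell (-2.01) and Rpl27a rose (2.45). Different probe sets of Rpl27a (0.64) and Mrps26 (-0.32) were not called. The medians were -0.28 for glycolysis, -0.59 for the mitochondrial and -0.33 for the cytosolic ribosome, against -0.03 over all genes tested. In the cell line, with 1 array, the lowest difference of the glycolysis list was that of Pfkp, another phosphofructokinase, at -3.36 relative to T lymphoma. Its other probe sets gave -0.56 and -2.56.

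RefSeq promoters of 300 bases were found for 67 of the 82 members. The NRF1 motif was present in 15 of the 67 (22.4%), against 5.19% of all promoters and 7.17% of those of protein-coding genes. The YY1 motif (AAGATGGCG) was in 6 (8.96%, against 1.64% and 2.14%), the GABPA motif in 5 (7.46%, against 4.31% and 5.69%) and the ESRRA motif in 2 (2.99%, against 0.466% and 0.377%), each counted on both strands. The 14 tested members with an NRF1 motif had a median of -0.03 in T lymphoma, against 0.16 in the 49 with a promoter and without the motif. In LSC the medians were -0.50 with and -0.23 without it. A match is a description of the letters, and no binding was measured here.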

How the data were processed

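RNA was hybridised to 12 Affymetrix Mouse430 2.0 arrays after 2 rounds of amplification, per the labels' protocols. The deposited table holds the authors' RMA values as linear intensity, per the submitters' processing notes, which give no RMA version. The T cell side and the stem cell side differ in median and appear to have been normalized apart, so groups were compared only within a side. The difference of the contrasts sets the within-side differences against each other. Whether the unlike scales alter its size was not tested. Intensities deposited by the authors were put on the log2 scale here, with no offset. Of 45101 probe sets, 34945 had 1 gene symbol, 932 with several were left out, and all 82 members matched a RefSeq gene by Entrez identifier. A gene was tested where its probe set exceeded the median of all values, log2 6.33, on at least 2 arrays. limma 3.58.1 (R 4.3.3) fitted 1 mean per group over 12 arrays with lmFit and eBayes, and p-values were adjusted by Benjamini-Hochberg over 12786 genes, with a threshold of 0.05. Precision is limited by the array number. The lone cell line and sorted lymphoma arrays were assumed to vary like the other groups. Replicate numbers did not pair the samples (deviations correlated at 0.03, -0.07 and -0.00106 in lymphoma and DP thymocytes and 0.0983 in LSC and HSC), so no block was used. Genes named were the called members, the highest and lowest of each complex in both main contrasts, the alternative isoforms and the called genes of the lists, and others named beside a small count or a changed call were chosen after their values were seen. The members, lists and markers were chosen with earlier results of these data known. The fit was tested on simulated data drawn with 1 spread per gene in all groups. That test cannot show how the p-values behave where the groups differ in spread, as they did here. The alternatives were other normalizations, filters, probe set rules, offsets, arrays in the fit, a replicate block, spread models and leaving out arrays.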

Additional observations from a re-analysis of the deposited data

Results flagged for a closer look

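Within the 4 lymphomas, 5 subunit genes had 1 array far from the others by Dixon's criterion of the gap over the range. Chance flags about 1 in 20 groups. Lymphoma 3 was the high array in Ndufa6 (log2 11.6, the others 10.8 to 10.9), Ndufb5 (12.5, the others 11.8) and Cox6a2 (9.32, the others 8.55 to 8.64). Lymphoma 2 was low in Uqcrfs1 (12.3, the others 12.9), and lymphoma 4, the sorted one, was low in Cox8a (10.4, the others 10.6 to 10.7). The effects in T lymphoma and LSC differed by the test of the difference itself in Cox6b2 (2.06 on the log2 scale) and Atp5g2 (2.40). For Cox6b2 both disease groups lay under the filter level, at different dim levels on the T cell and stem cell sides, so the size of its value is uncertain.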

How the results depend on the processing

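No called value reversed under the alternatives run, while the median over the tested members turned to 0.08 in LSC without LSC 1 and to -0.07 in T lymphoma with the sorted tumour alone. In T lymphoma the members called were 3 in the fit of that comparison's arrays alone and 12 with array weights, where all genes called were 837 in the reported fit, 1824 and 4678, and 0 in each fit without 1 array. The members' median without 1 array ranged from 0.02 to 0.20. In LSC the members called were 0 in the fit of that comparison's arrays alone and 0 with array weights (0 and 103 of all genes, against 1312), and 1 to 19 without 1 array, with medians of -0.72 to 0.08. For the difference of the contrasts they were 1 with the mean of all probe sets, 0 with array weights (311 of all genes, against 1141), 0 to 19 without 1 array (19 without LSC 2, with 2443 of all genes) and 1 without lymphoma 3 and LSC 1 (2298 of all genes). For the cell line 3 members were called with array weights (1835 of all genes, against 147), and for the sorted lymphoma 0 in every fit. The cause of these changes was not tested. With the replicate number as a block, 0 members were called in T lymphoma (478 of all genes), 4 in LSC (889), 2 for the difference (485) and 0 for the cell line (5), with Sdhc replaced by Sdhd in LSC (limma adjusted p of 0.0506 and 0.0467) and Cox6b2 by Sdhd for the difference. No paired analysis was possible for the sorted comparison because it has 1 sorted array. Signal over background limits Cox6b2 and the 6 untested members: without the filter Cox7a1 was called in LSC (1.45) while both groups lay under the filter level.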

Other observations

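Other probe sets of 2 members were called where the chosen one was not. A dimmer probe set of Ndufs4 gave -0.92 in T lymphoma and 1.19 in LSC (limma, Benjamini-Hochberg adjusted p = 0.031 and 0.0276), with a difference of contrasts of -2.11 (adjusted p = 0.00835), and a dimmer one of Atp5c1 gave 1.96 in LSC (adjusted p = 0.0346). Glycolysis genes had their highest median among the lymphomas in lymphoma 1 (0.81 relative to the DP thymocyte mean), with 0.47, 0.04 and 0.21 in lymphomas 2 to 4, an order unlike that of the subunit genes.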
